A study of Homo sapiens with 27 samples.

Results

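The genes described here are 10 neuronal and secretory genes measured by RNA sequencing in A375 cells: PCSK2, UCN2, SV2C, RAB3B, GRIN2A, GAP43, NAV2, NAV3, SLC6A12 and SLC24A2. They are 10 of the 58721 genes in the count table and 10 of the 25199 that passed the low-count filter, so every one of them could be tested. They were chosen on measured values of the same libraries: a gene was listed when it was higher with drug in control cells or lower with knockout, and was lower in drug-treated knockout cells. The drug responses, the knockout effects and the differences between them are therefore given below as descriptions, with no test.

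A375 is an established human melanoma cell line that carries an activating mutation of the kinase BRAF. Control cells, labelled WT and GFPsg, carried a guide against GFP, which the labels call non-targeting. Knockout cells carried guide 1 (TADA2Bsg1) or guide 2 (TADA2Bsg2) against TADA2B, an adaptor subunit of the SAGA histone acetyltransferase complex. Each of the 3 kinds of cells was given DMSO, 20 nM trametinib, an inhibitor of MEK, or 1 uM vemurafenib, an inhibitor of mutant BRAF, for 24 h, with 3 libraries in each of the 9 groups. Nothing in the labels tells whether the 3 libraries of each kind were grown as separate cultures, or whether the knockout cells were a clone or a pool. The p-values therefore measure only how much these libraries varied, and that variation may be technical.

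The 27 libraries held 67502300 to 92513726 counts each, and the common biological coefficient of variation was 4.02%. TADA2B transcript was retained in knockout cells, at 30.4 ± 0.773 CPM (counts scaled to a common library size of 1000000, SD, n = 3) with guide 1 and 28.6 ± 1.21 CPM with guide 2 against 31.2 ± 0.931 CPM in control cells in DMSO, so the count of its transcript does not check the knockout. In trametinib TADA2B was at 34.9 ± 0.778 and 29.3 ± 0.534 CPM with the 2 guides against 41.3 ± 1.27 CPM in control cells, a log2 difference of -0.37 ± 0.0356 (SE) over both guides (edgeR quasi-likelihood test, adjusted p = 1.17e-12).

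Neurons and neuroendocrine cells store peptides in dense-core granules and small transmitters in synaptic vesicles, and both kinds of vesicle release their load when calcium enters the cell. PCSK2 is a convertase that cuts prohormones inside such granules, and UCN2, urocortin 2, is a secreted peptide of the corticotropin-releasing hormone family. SV2C is a synaptic vesicle glycoprotein, RAB3B is a small GTPase of regulated exocytosis, and GRIN2A is a subunit of the NMDA glutamate receptor. GAP43 is a growth cone protein, and NAV2 and NAV3 are neuron navigators that bind microtubules in growing processes. SLC6A12 carries betaine and GABA into the cell, and SLC24A2 exchanges sodium for calcium and potassium. Melanocytes descend from the neural crest, as do peripheral neurons and Schwann cells.

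The start regions of 3 of these genes are shown because they held the letters of sites for AP-1 or CREB family factors, classes of factor that act downstream of kinase signalling. RefSeq promoter windows (GRCh38.p14), running from 250 bases before a transcript start to 50 bases after it, matched 9 of the 10 genes by symbol with 13 windows, and SLC6A12 had no entry. Each line gives 80 bases from before the start, 5′ to 3′ on the strand of the gene, with the match in capitals. The RAB3B and UCN2 stretches hold the AP-1 letters TGANTCA, and the PCSK2 stretch holds the reverse complement of TGACG, the shorter core of a cyclic AMP response element.
RAB3B, chr1:51990776-51990855, minus strand: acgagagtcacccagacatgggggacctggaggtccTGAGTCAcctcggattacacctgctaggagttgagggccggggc
UCN2, chr3:48563840-48563919, minus strand: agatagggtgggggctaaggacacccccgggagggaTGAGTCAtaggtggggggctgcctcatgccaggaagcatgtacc
PCSK2, chr20:17225914-17225993, plus strand: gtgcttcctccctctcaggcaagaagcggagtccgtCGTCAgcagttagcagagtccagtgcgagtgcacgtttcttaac

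Motifs were searched on both strands. TGANTCA was in 2 of the 13 windows and in 7.71% of 35116 windows of the same length. TGACG was in 3 of the 13, both PCSK2 windows and 1 NAV2 window, against 24.6% of all windows, and this count includes any full TGACGTCA. The ETS core CCGGAA was in 3 of the 13 (UCN2, NAV2 and NAV3) against 17.2%, and the TEAD letters GGAATG in 1 (NAV2) against 14%. The full TGACGTCA, the MITF letters TCATGTG, the E-box CACGTG, the TATAAA box and the left arm of the REST element, TTCAGCACC, were in none of the 13, against 1.85%, 2.92%, 7.26%, 11.5% and 0.376% of all windows. A match describes letters only, and the absence of a match says nothing of the factor.

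**Figure D1:**
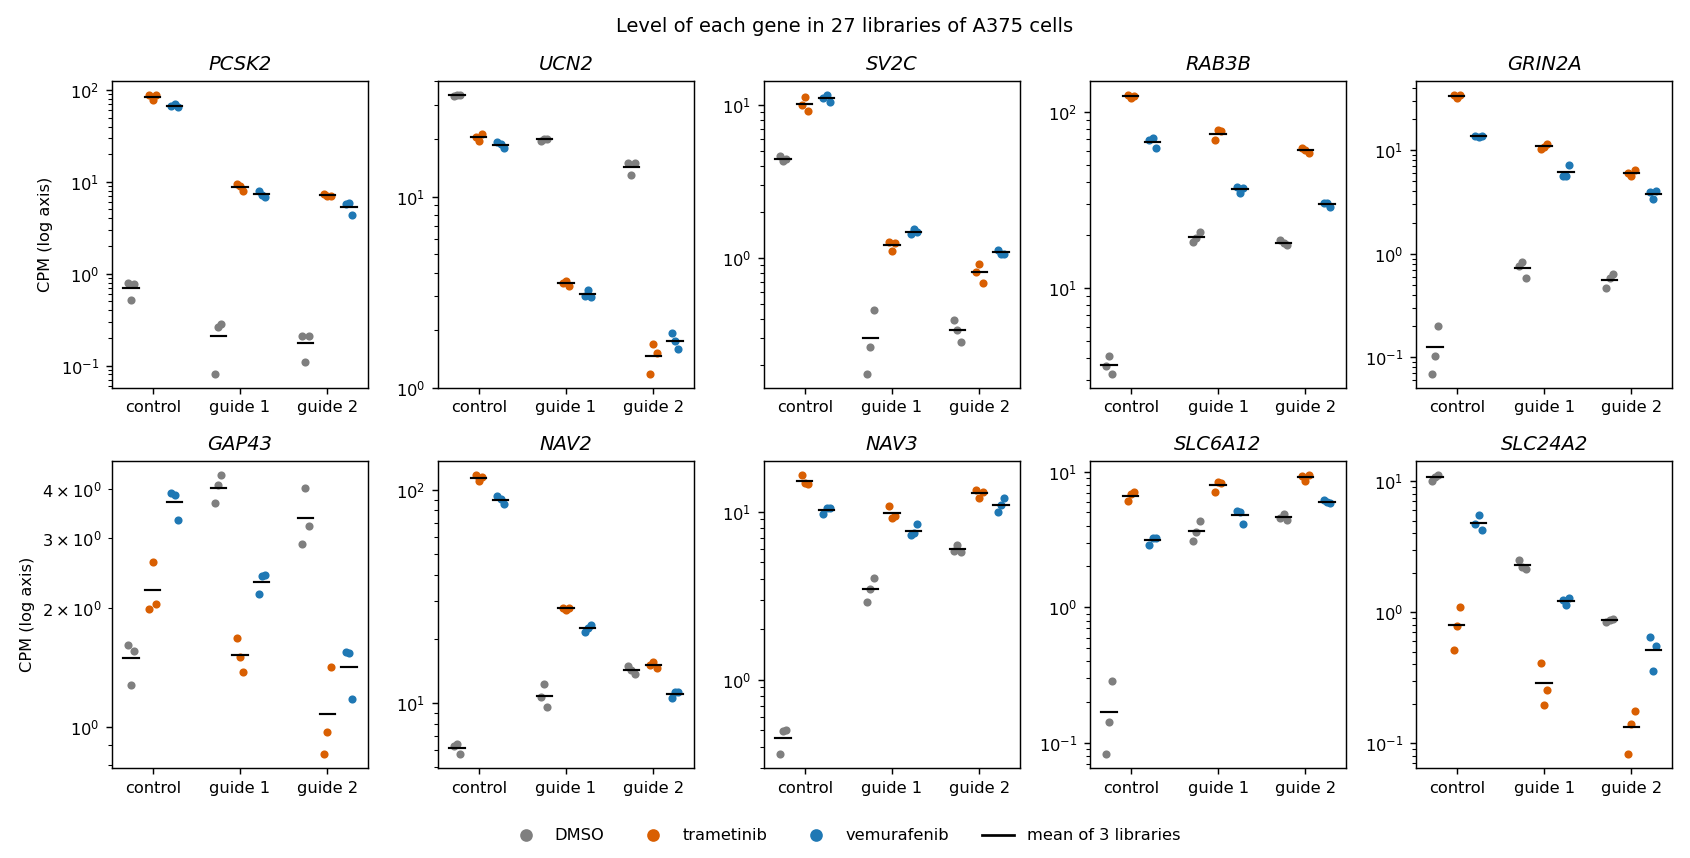
Level of each gene (CPM, log axis) in every library, by cell type on the x axis and by treatment in colour, with the mean of 3 libraries as a black line. PCSK2, UCN2, SV2C and SLC24A2 lie lower in both guide groups than in control cells under all 3 treatments, while SLC6A12 lies higher.

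Of the genes of secreted peptides, PCSK2 was low without drug and high with either drug, and knockout cells held less of it under every treatment. In control cells PCSK2 was at 0.791, 0.519 and 0.775 CPM in DMSO, 88.2, 78.4 and 87.9 CPM in trametinib and 67.1, 70.6 and 64.8 CPM in vemurafenib. With guide 1 the PCSK2 values were 0.0812, 0.264 and 0.281 CPM in DMSO, 9.44, 9.1 and 7.93 CPM in trametinib and 7.91, 7.26 and 6.77 CPM in vemurafenib. With guide 2 they were 0.212, 0.11 and 0.209 CPM, 7.39, 6.95 and 7.01 CPM, and 5.68, 5.93 and 4.3 CPM in the same order. All 6 guide groups lay under the control group of their treatment with no overlap. PCSK2 was 123-fold higher in trametinib than in DMSO in control cells (log2 6.94 ± 0.123) and 41.1-fold higher over both guides (log2 5.36 ± 0.134). In trametinib the knockout cells held 9.35% of the control level, and in DMSO 27.9%, the latter on 6 to 22 counts per knockout library.

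UCN2 went the other way with drug. Its values in control cells were 33.4, 33.9 and 34 CPM in DMSO, 20.4, 19.5 and 21.2 CPM in trametinib, and 19.3, 18.9 and 17.9 CPM in vemurafenib. With guide 1 UCN2 was at 19.6, 20 and 19.9 CPM in DMSO, 3.53, 3.6 and 3.41 CPM in trametinib and 3.01, 3.25 and 2.98 CPM in vemurafenib. With guide 2 UCN2 was at 15, 12.9 and 14.9 CPM in DMSO, 1.18, 1.7 and 1.52 CPM in trametinib and 1.94, 1.75 and 1.6 CPM in vemurafenib. The 6 guide groups again lay under their control groups. UCN2 was thus 1.66-fold lower in trametinib than in DMSO in control cells and 7.38-fold lower over both guides, and the knockout cells held 49.8% of the control level in DMSO, 11.2% in trametinib and 12.5% in vemurafenib. UCN2 shares 289 of its 1481 exon bases (19.5%) with PFKFB4, a gene of the same strand at 122 CPM on average against 13 CPM for UCN2. How reads in shared bases were counted is not given in the sources used here, so UCN2 counts are uncertain. PFKFB4 was higher in trametinib in control cells (log2 0.50 ± 0.0371, adjusted p = 1.39e-16 by edgeR) and lower with knockout in trametinib (log2 -0.88 ± 0.0313, adjusted p = 1.39e-28).

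For the vesicle genes, SV2C was low in knockout cells under every treatment, and RAB3B was not. SV2C was at 4.63, 4.32 and 4.41 CPM in control cells in DMSO, 9.97, 11.3 and 9.12 CPM in trametinib, and 11.1, 11.6 and 10.4 CPM in vemurafenib. With guide 1 SV2C was at 0.176, 0.264 and 0.46 CPM in DMSO, 1.28, 1.12 and 1.25 CPM in trametinib and 1.43, 1.55 and 1.49 CPM in vemurafenib. With guide 2 it was at 0.397, 0.342 and 0.283 CPM, 0.812, 0.92 and 0.691 CPM, and 1.13, 1.07 and 1.06 CPM. All 18 guide libraries lay under all 9 control libraries. The knockout level of SV2C was 7.27% of control in DMSO, 9.78% in trametinib and 11.5% in vemurafenib, so its fold change with trametinib was no smaller in knockout cells (3.06-fold, log2 1.62 ± 0.141) than in control cells (2.28-fold, log2 1.19 ± 0.106). The knockout level in DMSO rested on 13 to 36 counts per library. From DMSO to trametinib the means went from 0.3 to 1.22 CPM with guide 1 and from 0.341 to 0.808 CPM with guide 2. RAP1BL and HMGN2P4, pseudogenes at 7.01 and 1.9 CPM on average, lie within SV2C on the opposite strand, but share 0 of its exon bases.

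RAB3B in control cells was at 3.61, 4.12 and 3.26 CPM in DMSO, 125, 120 and 123 CPM in trametinib, and 69.8, 71.1 and 62.7 CPM in vemurafenib. With guide 1 RAB3B was at 18.2, 19.3 and 20.8 CPM in DMSO, 69.1, 78.7 and 78.3 CPM in trametinib and 37.6, 34.8 and 37 CPM in vemurafenib. With guide 2 the values were 18.7, 18 and 17.5 CPM, 62.4, 60.9 and 58.9 CPM, and 30.5, 30.4 and 28.7 CPM. Knockout cells were above control cells in DMSO (5.1-fold) and below them in trametinib (1.81-fold) and in vemurafenib (2.06-fold), with no overlap of libraries in any of these. The range from DMSO to trametinib narrowed from 33.4-fold in control cells to 3.61-fold over both guides, with a higher start and a lower end.

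GRIN2A, the glutamate receptor subunit, was like RAB3B above control with knockout in DMSO and below it with either drug. In control cells it was at 0.0694, 0.104 and 0.201 CPM in DMSO (5, 8 and 14 counts), 34.2, 32.2 and 34.2 CPM in trametinib and 13.6, 13.5 and 13.8 CPM in vemurafenib. With guide 1 GRIN2A was at 0.771, 0.833 and 0.587 CPM in DMSO, 10.4, 10.7 and 11.5 CPM in trametinib and 5.67, 5.69 and 7.17 CPM in vemurafenib. With guide 2 it was at 0.463, 0.586 and 0.641 CPM, 6.03, 5.6 and 6.41 CPM, and 3.98, 3.36 and 4.02 CPM. The gene was 268-fold higher in trametinib in control cells (log2 8.07 ± 0.148) and 12.6-fold higher over both guides (log2 3.66 ± 0.0881). Knockout cells were 5.13-fold above control cells in DMSO and 4.14-fold below them in trametinib.

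Of the genes of growing processes, NAV2 was the furthest below control in drug-treated knockout cells. NAV2 in control cells was at 6.28, 6.42 and 5.75 CPM in DMSO, 117, 110 and 115 CPM in trametinib, and 93, 90.6 and 85.3 CPM in vemurafenib. With guide 1 NAV2 was at 10.7, 12.3 and 9.53 CPM in DMSO, 28, 27.3 and 28 CPM in trametinib and 21.4, 22.5 and 23.2 CPM in vemurafenib. With guide 2 it was at 14.9, 14.2 and 13.6 CPM, 15.1, 15.5 and 14.5 CPM, and 10.5, 11.2 and 11.3 CPM. The 18.5-fold difference between trametinib and DMSO in control cells was 2.56-fold with guide 1 and 1.06-fold with guide 2, and in vemurafenib guide 2 cells stood at 77.1% of their DMSO level.

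NAV3 was at 0.361 to 0.502 CPM in control cells in DMSO, 14.6 to 16.5 CPM in trametinib and 9.72 to 10.6 CPM in vemurafenib. With guide 1 the NAV3 groups were at 3.46 ± 0.558, 9.8 ± 0.891 and 7.73 ± 0.622 CPM (SD, n = 3) in DMSO, trametinib and vemurafenib. With guide 2 they were at 5.97 ± 0.336, 12.9 ± 0.726 and 10.9 ± 1.06 CPM. In vemurafenib the guide 2 libraries, 9.92, 10.9 and 12 CPM, overlapped the control libraries, so NAV3 was not lower with that guide and drug. What differed more was the level without drug, 10-fold higher over both guides than in control cells (log2 3.33 ± 0.137).

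GAP43 was low in every group, from 0.854 to 4.33 CPM. Its control values were 1.61, 1.28 and 1.56 CPM in DMSO, 1.99, 2.61 and 2.05 CPM in trametinib, and 3.91, 3.86 and 3.33 CPM in vemurafenib. With guide 1 the GAP43 means were 4.03 ± 0.328, 1.52 ± 0.15 and 2.33 ± 0.142 CPM in DMSO, trametinib and vemurafenib, and with guide 2 they were 3.38 ± 0.583, 1.08 ± 0.297 and 1.42 ± 0.208 CPM. The direction with drug was opposite in the 2 kinds of cells: GAP43 was 1.5-fold higher in trametinib in control cells and 2.87-fold lower over both guides.

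Of the transporter genes, SLC6A12 departed from the description under which the genes were listed. SLC6A12 was at 0.0832, 0.143 and 0.287 CPM in control cells in DMSO (6, 11 and 20 counts), 6.07, 6.83 and 7.04 CPM in trametinib and 2.87, 3.24 and 3.22 CPM in vemurafenib. With guide 1 SLC6A12 was at 3.06, 3.56 and 4.32 CPM in DMSO, 7.11, 8.37 and 8.25 CPM in trametinib and 5.14, 5 and 4.13 CPM in vemurafenib. With guide 2 it was at 4.56, 4.86 and 4.41 CPM, 9.28, 8.46 and 9.39 CPM, and 6.16, 5.92 and 5.86 CPM. All 6 guide groups lay above their control groups, so SLC6A12 was not lower in drug-treated knockout cells. Its fold difference with trametinib was smaller there (2.06-fold against 38.9-fold) with a DMSO level 24.1-fold higher than in control cells.

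SLC24A2 was highest in control cells in DMSO, at 10.1, 10.8 and 11.1 CPM. It was at 0.513, 0.783 and 1.1 CPM in control cells in trametinib and 4.7, 5.53 and 4.25 CPM in vemurafenib. With guide 1 its means were 2.29 ± 0.188, 0.287 ± 0.112 and 1.22 ± 0.0715 CPM in DMSO, trametinib and vemurafenib, and with guide 2 they were 0.864 ± 0.0166, 0.133 ± 0.0469 and 0.517 ± 0.148 CPM. The 6 guide groups lay under their control groups, and the level was lower with either drug in all 3 kinds of cells. SLC24A2 was 13.5-fold lower with trametinib in control cells and 7.11-fold lower over both guides, the latter on 6 to 37 counts per library.

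**Figure D2:**
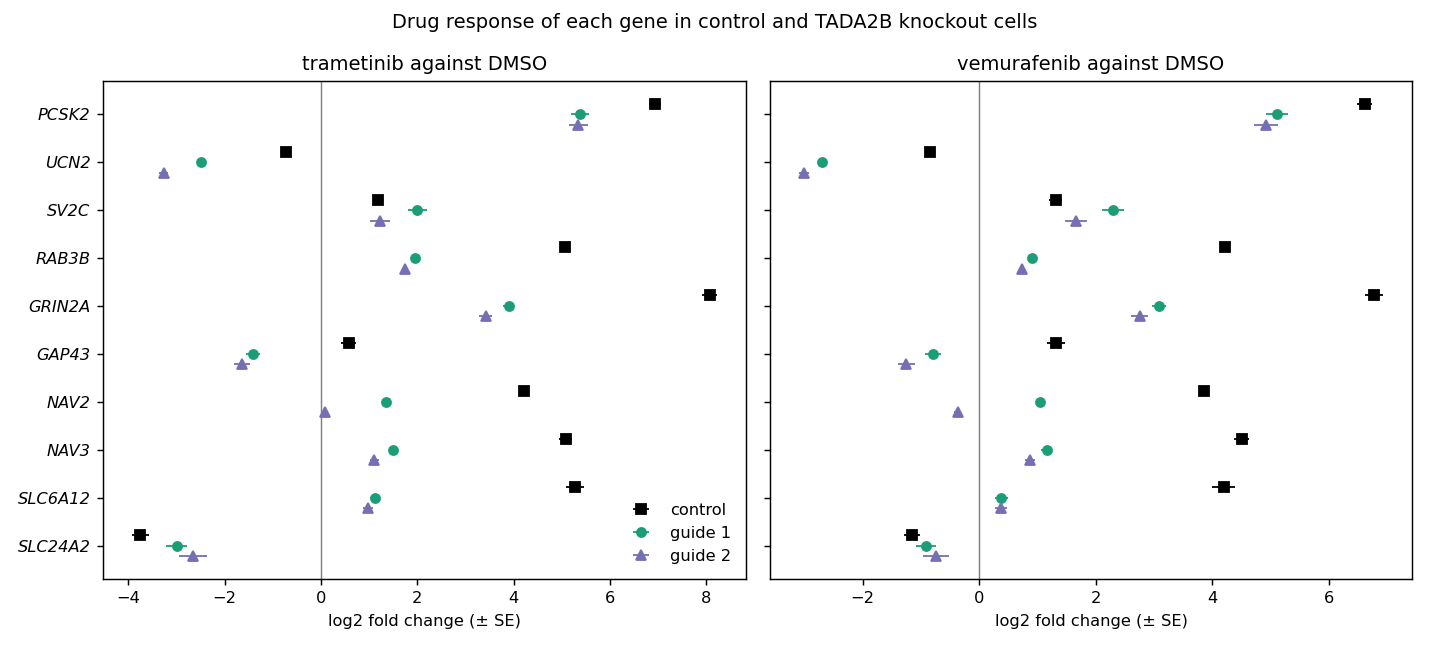
Log2 fold change of each gene with trametinib (left) or vemurafenib (right) against DMSO in control cells (squares), guide 1 cells (circles) and guide 2 cells (triangles), with the SE from the edgeR fit as bars. RAB3B, GRIN2A, NAV2, NAV3 and SLC6A12 are above 4 in control cells with trametinib and under 4 with either guide, SV2C is not lower with either guide than in control cells with trametinib, and UCN2 and SLC24A2 lie below 0 throughout.

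Over the list, 8 of the 10 genes were higher and 2 lower with trametinib in control cells (median log2 4.64, against 0.06 over all genes tested), and the counts were the same with vemurafenib (median 4.02). In knockout cells 7 were higher and 3 lower with each drug, with median log2 values of 1.17 for trametinib and 0.60 for vemurafenib. Knockout cells were above control cells for 6 and below for 4 in DMSO (median 1.17), and below for 9 and above for 1, SLC6A12, in trametinib (median -2.03) and in vemurafenib (median -2.00). The difference between the trametinib responses of knockout and control cells was negative for 8 and positive for 2, SV2C and SLC24A2. These counts follow from how the genes were chosen.

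Levels per length of transcript allow the genes to be set against each other. On the scale of CPM per kilobase of exon, UCN2 was the highest in control cells in DMSO at 22.8, while PCSK2 was at 0.0982, RAB3B at 0.285 and NAV2 at 0.419. In control cells in trametinib UCN2 was at 13.8, PCSK2 at 12, RAB3B at 9.55, NAV2 at 7.78 and GRIN2A at 2.01 CPM per kilobase. In guide 2 cells in trametinib the same scale gave 4.73 for RAB3B, 1.71 for SLC6A12, 1.03 for NAV2, 1.01 for PCSK2 and 0.992 for UCN2. With guide 1 in trametinib it gave 5.87 for RAB3B, 2.37 for UCN2, 1.89 for NAV2, 1.5 for SLC6A12 and 1.25 for PCSK2. The order of the genes in trametinib therefore differed between control cells and each guide, and also between the guides.

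The genes did not share a single pattern. Over the 9 group means of log2 CPM, Pearson's r between pairs of the 10 genes ran from -0.83 (SLC6A12 and SLC24A2) to 0.97 (RAB3B and GRIN2A), with a median of 0.35 over 45 pairs, 17 of them above 0.5 and 17 below 0. RAB3B, GRIN2A, NAV3 and SLC6A12 were alike, with r between them of 0.72 to 0.97. PCSK2 and NAV2 were also close to GRIN2A (r = 0.89 and 0.84) and to RAB3B (0.77 and 0.81). They were less so to NAV3 (0.61 and 0.64) and SLC6A12 (0.35 and 0.43). UCN2 lay closest to SLC24A2 (r = 0.79) and to GAP43 (r = 0.61). These values describe 9 means that share libraries, treatments and the choice of genes.

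Outside the list, the protein-coding gene whose 9 group means were most like those of each gene was ACADM for PCSK2 (r = 0.9993), FRMD8 for UCN2 (0.9961), DYM for SV2C (0.9905) and IL17RB for RAB3B (0.9893). The same measure named TBC1D10C for GRIN2A (r = 0.9961), ARSB for GAP43 (0.9595), PANX1 for NAV2 (0.9946) and NDRG2 for NAV3 (0.9941). PABIR1 was named for SLC6A12 (r = 0.9868) and LDLRAD3 for SLC24A2 (0.9895). Pearson's r compares the shape of a pattern and not its size. The group means of ACADM ran from 64 to 96.5 CPM, and those of PCSK2 from 0.177 to 84.8 CPM. With Spearman's rho in place of Pearson's r, only 4 of the 30 nearest genes, 3 for each gene of the list, were named again.

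The choice of genes did not use the difference between the 2 guides, which target the same gene. It did use values of the same knockout libraries. The shares of all genes tested given here are therefore not an independent reference for genes chosen in this way. With trametinib, 8 of the 10 genes were lower and 1 higher with guide 2 than with guide 1 by the edgeR quasi-likelihood test, where 19.7% of all genes tested were called and 8.91% were called lower. UCN2 had the largest difference, at 42% of its guide 1 level (log2 -1.25 ± 0.0985, adjusted p = 1.57e-14), followed by SLC24A2 at 47.7% (log2 -1.07 ± 0.348, adjusted p = 0.023), NAV2 at 54.2% (log2 -0.88 ± 0.054, adjusted p = 2.06e-18) and GRIN2A at 55.3% (log2 -0.85 ± 0.0846, adjusted p = 2.31e-11). SV2C, GAP43, PCSK2 and RAB3B were at 66.2%, 71.7%, 80.6% and 80.6%. NAV3 was the one gene called higher with guide 2 (log2 0.40 ± 0.0818, adjusted p = 0.000201), and SLC6A12, at log2 0.19 ± 0.0989, was not called (adjusted p = 0.188). The guide 1 and guide 2 libraries overlapped in trametinib for GAP43 and for none of the other 9, where 33.4% of all genes tested had libraries that did not overlap.

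Some of these calls were lost when single libraries were left out. The PCSK2 call was lost without guide 1 library 1 or 2 or guide 2 library 2 or 3, with adjusted p of 0.0594 to 0.0897. GAP43 lost its call without guide 1 library 1 or 2 or guide 2 library 1 or 2 (adjusted p 0.0654 to 0.226), and by limma voom (adjusted p = 0.0573). SLC24A2 lost it without guide 1 library 1 or guide 2 library 1 or 2 (adjusted p 0.0579 to 0.246), by limma voom (adjusted p = 0.125) and in a fit of only these groups (adjusted p = 0.0675).

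With vemurafenib all 10 genes were called between the guides, 8 lower and 2 higher with guide 2, where 16% of all genes tested were called and 8.85% were called lower. The lower ones ranged from RAB3B at 82% of the guide 1 level (log2 -0.29 ± 0.0517, adjusted p = 3.75e-05) to SLC24A2 at 42.4% (log2 -1.24 ± 0.211, adjusted p = 1.15e-05), and the libraries of the 2 guides overlapped for none of the 10, where 27.5% of all genes tested had libraries that did not overlap. NAV3 (log2 0.50 ± 0.0852) and SLC6A12 (log2 0.33 ± 0.107) were the higher ones. The SV2C call (log2 -0.45 ± 0.148, adjusted p = 0.0282) was lost without guide 1 library 2 or 3 or guide 2 library 2 or 3 (adjusted p 0.0705 to 0.0924), by limma voom (adjusted p = 0.0836) and in a fit of only these groups (adjusted p = 0.0628). The SLC6A12 call (adjusted p = 0.0244) was lost without guide 1 library 3 or guide 2 library 1 or 2 (adjusted p 0.0517 to 0.216).

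Without drug fewer of the genes were called between the guides. In DMSO 5 of the 10 were called where 11.9% of all genes tested were called. Among those not called, PCSK2 had 6 to 22 counts per library (log2 -0.28 ± 0.432) and SV2C had 13 to 36 (log2 0.18 ± 0.252). With errors of this size, differences as large as those called with drug could have been missed for PCSK2 and SV2C. SLC24A2 was lower with guide 2 (log2 -1.40 ± 0.181, adjusted p = 4.05e-08), as was UCN2 (log2 -0.48 ± 0.0631, adjusted p = 5.86e-08). NAV3 (log2 0.78 ± 0.0987, adjusted p = 2.13e-08), NAV2 (log2 0.39 ± 0.06, adjusted p = 1.55e-06) and SLC6A12 (log2 0.34 ± 0.113, adjusted p = 0.0396) were higher. The SLC6A12 call was lost without guide 1 library 1 or 2 or any 1 of the guide 2 libraries (adjusted p 0.0549 to 0.282).

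The guides' drug responses were then compared directly. NAV2 responded less with guide 2 than with guide 1 to trametinib (log2 difference -1.28 ± 0.0807, adjusted p = 7.81e-17) and to vemurafenib (-1.42 ± 0.0829, adjusted p = 9.32e-18), and UCN2 was lowered more by trametinib with guide 2 (-0.77 ± 0.118, adjusted p = 4.55e-06). These were 2 of the 10 genes for trametinib, where 8.02% of all genes tested were called, and 1 of the 10 for vemurafenib, where 4.05% were called. SV2C had as large a difference as UCN2 for trametinib, -0.77 ± 0.298, which was not called (adjusted p = 0.11) and was called without guide 1 library 3 in DMSO (-1.23, adjusted p = 0.0085). That SV2C library, at 0.46 CPM, was the highest of the 3. NAV3 (adjusted p = 0.0513) and RAB3B (adjusted p = 0.0905) were called in some alternatives, NAV3 also by the DESeq2 Wald test (adjusted p = 0.0298), and without guide 1 library 3 in DMSO both were called (adjusted p of 0.0123 and 0.0383). NAV3 was called as well without guide 1 library 2 in trametinib (adjusted p = 0.0375), and RAB3B without guide 1 library 1 in trametinib (adjusted p = 0.0147). For vemurafenib, SV2C was called without guide 1 library 3 in DMSO (-1.08, adjusted p = 0.0366) against -0.63 ± 0.293 (adjusted p = 0.317) with it.

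**Figure D3:**
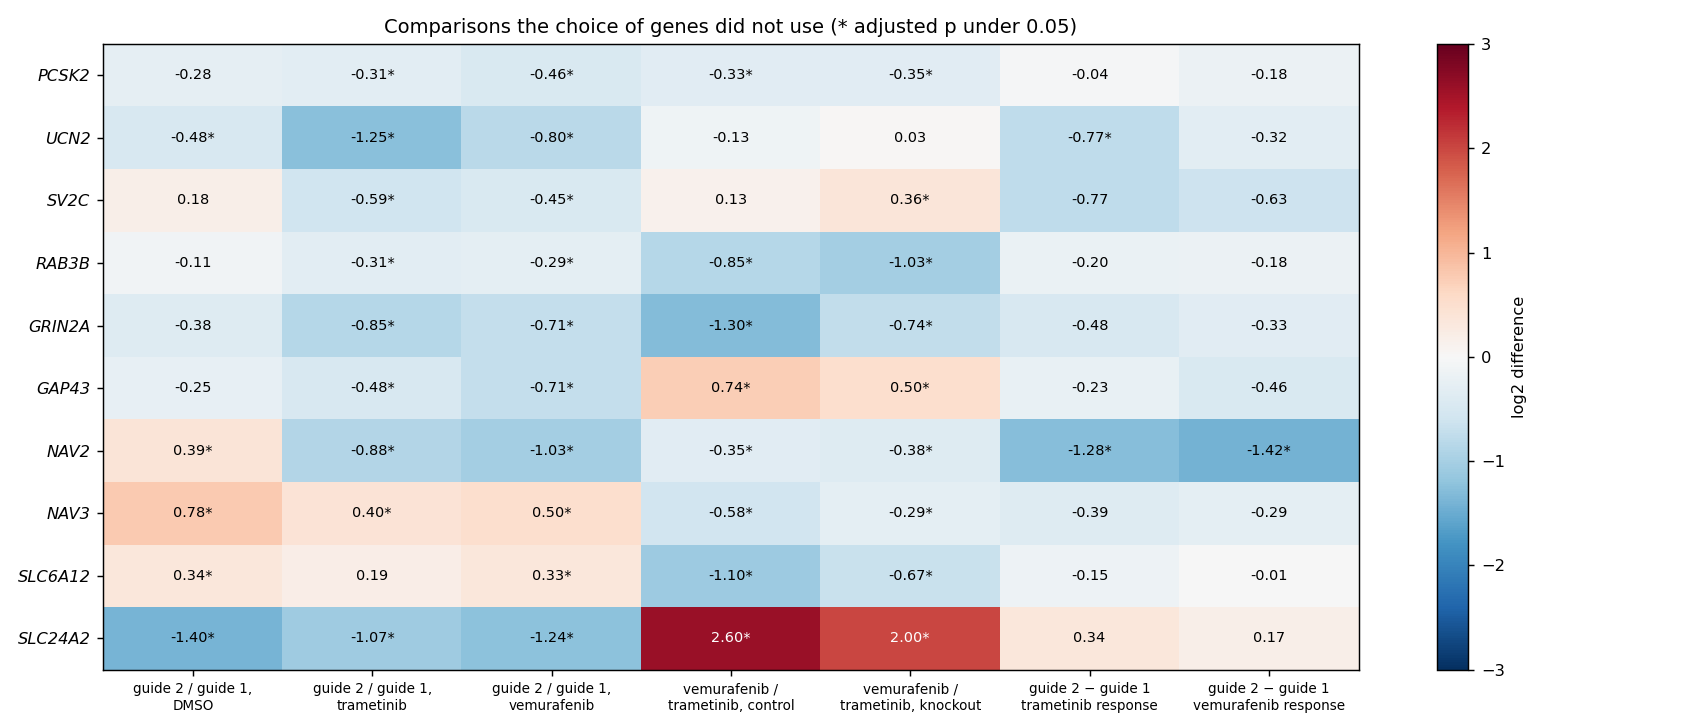
Log2 difference of each gene (rows) in 7 comparisons between guides or drugs (columns), in colour and as printed. An asterisk marks an adjusted p of the edgeR quasi-likelihood test under 0.05. The choice of genes did not use these differences, but it used values of the same libraries. With guide 2 against guide 1 in either drug, 8 of the 10 genes are lower, and SLC24A2 has the largest differences between the drugs, 2.60 in control cells and 2.00 in knockout cells.

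The drugs act on neighbouring kinases of the same pathway, and at the doses used they differed for most of the genes. In control cells 8 of the 10 were called between vemurafenib and trametinib, 6 of them lower with vemurafenib, where 16.3% of all genes tested were called and 7.56% were called lower. GRIN2A in vemurafenib stood at 40.7% of its trametinib level (log2 -1.30 ± 0.0767, adjusted p = 7.57e-19), SLC6A12 at 46.7% (log2 -1.10 ± 0.111), RAB3B at 55.4% (log2 -0.85 ± 0.0476), NAV3 at 67%, NAV2 at 78.5% and PCSK2 at 79.6%. SLC24A2 was 6.08-fold higher in vemurafenib (log2 2.60 ± 0.171, adjusted p = 4.01e-17), and GAP43 was 1.67-fold higher (adjusted p = 9.43e-05). UCN2 (log2 -0.13 ± 0.0616, adjusted p = 0.18) and SV2C (log2 0.13 ± 0.0996, adjusted p = 0.471) were not called. The 2 drugs were given at different doses, so these values compare the 2 treatments and not the drugs' strength. The genes were chosen partly on values of these drug-treated libraries and of the drug-treated knockout libraries. The shares of all genes tested are therefore not an independent reference here or for knockout cells below.

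Knockout cells showed the same directions between the drugs, except for UCN2, which was called in neither. Over both guides 9 of the 10 genes were called, 6 lower and 3 higher with vemurafenib, where 19.1% of all genes tested were called and 8.29% were called lower. RAB3B in vemurafenib was at 48.8% of its trametinib level (log2 -1.03 ± 0.0354, adjusted p = 7.88e-27), GRIN2A at 59.8% (log2 -0.74 ± 0.0634, adjusted p = 1.88e-13) and SLC6A12 at 63% (log2 -0.67 ± 0.0729, adjusted p = 2.9e-10). SLC24A2 was 4.01-fold higher with vemurafenib (log2 2.00 ± 0.194, adjusted p = 9.86e-12). SV2C was 1.29-fold higher (log2 0.36 ± 0.108, adjusted p = 0.012), a call lost without guide 2 library 3 in trametinib (adjusted p = 0.0569). UCN2 was at log2 0.03 ± 0.0712 (adjusted p = 0.829). Whether a difference between the drugs was itself changed by knockout was not tested.

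The 10 genes belong to families of which 141 other members, from 8 lists of 174 genes, were tested. With trametinib in control cells 69 of these were higher and 42 lower (edgeR, adjusted p under 0.05), where 36.4% of all genes tested were higher and 32.5% lower, and with vemurafenib 68 were higher and 43 lower against 35.7% and 31.6%. Knockout gave 67 higher and 40 lower in DMSO against 29.3% and 28.6% of all genes, 49 higher and 51 lower in trametinib against 27.1% and 28.8%, and 47 higher and 55 lower in vemurafenib against 27.3% and 28.3%. The difference between the knockout and control responses was positive for 30 and negative for 66 with trametinib, against 20.8% and 23.2% of all genes, and positive for 28 and negative for 58 with vemurafenib, against 20% and 22.4%. The median log2 value of the 141 genes was 0.25 for trametinib in control cells and -0.18 for the trametinib difference, against 0.06 and -0.02 over all genes tested.

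**Figure D4:**
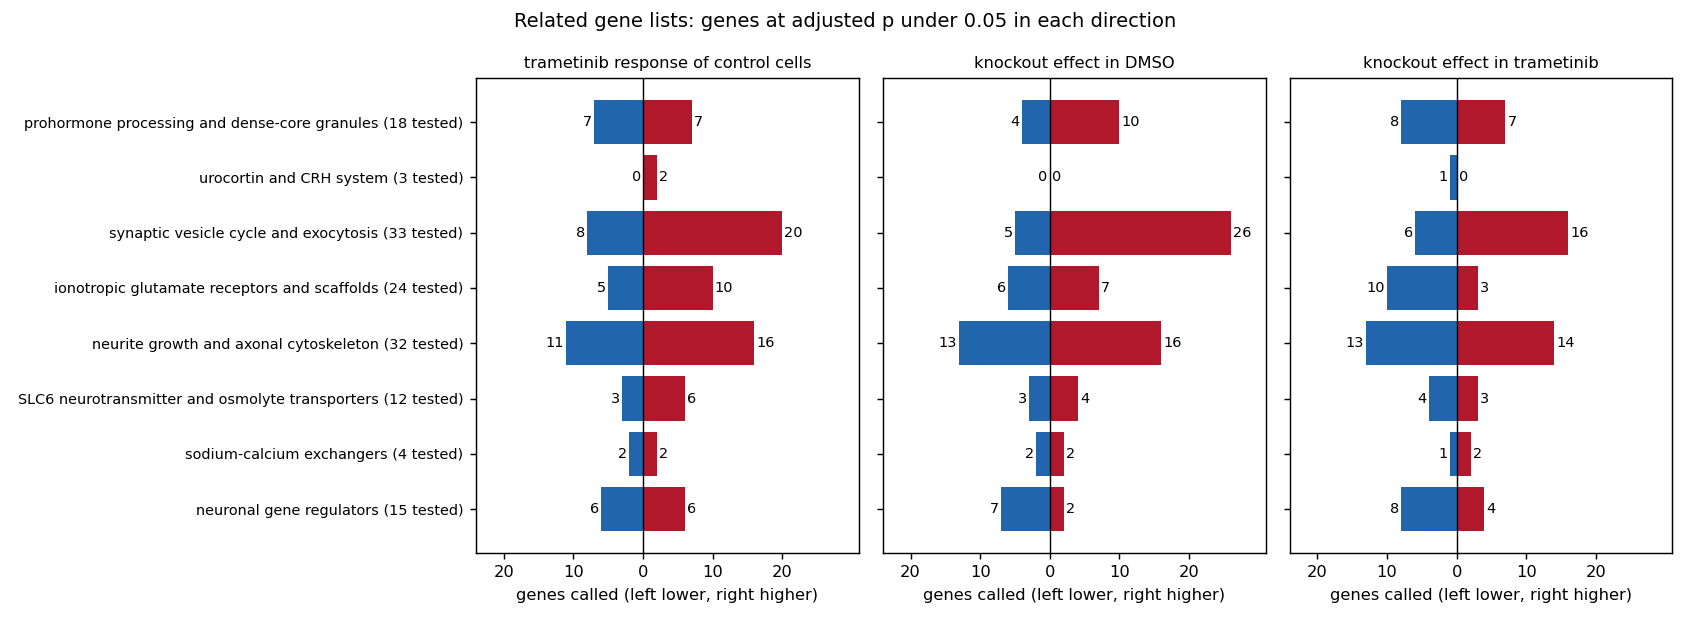
Number of genes of each related list (rows, with the number tested) that were lower (left, blue) or higher (right, red) at an adjusted p under 0.05 in 3 comparisons. The list of the synaptic vesicle cycle has 26 of 33 genes higher with knockout in DMSO, where 29.3% of all genes tested were higher. With knockout in trametinib it has 16 higher and 6 lower, against 27.1% and 28.8% of all genes tested.

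Of 18 genes of prohormone processing and dense-core granules, 7 rose and 7 fell with trametinib in control cells. Over all genes tested 36.4% rose and 32.5% fell, and with knockout in trametinib 27.1% were higher and 28.8% lower. The counts of each list below stand beside these same shares. PCSK1, the convertase that works beside PCSK2, fell (log2 -1.75 ± 0.0457, adjusted p = 9.28e-35), and so did VGF, a granule peptide (log2 -4.42 ± 0.0451). SCG5, the chaperone of PCSK2, rose (log2 3.10 ± 0.166, adjusted p = 4.75e-22). In trametinib PCSK1 was 7.38-fold higher in knockout than in control cells (adjusted p = 1.28e-44), at 85.9 ± 2.29 CPM with guide 1 and 92.8 ± 2.26 CPM with guide 2 against 12.1 ± 0.0591 CPM. CHGB, a granin, was 6.36-fold higher (adjusted p = 1.44e-32). The convertases PCSK6 and PCSK5 were 3.47-fold and 2.97-fold lower. PCSK1 and PCSK2 thus stood on opposite sides of control cells in the same libraries.

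Of 33 genes of the synaptic vesicle cycle and exocytosis, 20 rose and 8 fell with trametinib in control cells. RIMS2, an active zone protein that binds RAB3 proteins, went from 1.61 ± 0.392 to 10.8 ± 0.168 CPM (log2 2.74 ± 0.131, adjusted p = 4.82e-24), and was 6.95-fold lower in knockout cells in trametinib (adjusted p = 4.25e-28). SYTL5, a Rab27 effector, went from 450 ± 8.19 to 18.2 ± 0.619 CPM (log2 -4.63 ± 0.0365) and was 6.13-fold higher in knockout cells in trametinib (adjusted p = 6.71e-47). SYT11 rose and STX1A fell with trametinib in control cells (log2 1.72 ± 0.0277 and -2.74 ± 0.0722). RAB27B was 5.01-fold higher and SYN3 2.25-fold lower in knockout cells in trametinib. The list held genes that moved in both directions in each comparison.

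Of 24 genes of ionotropic glutamate receptors and their scaffolds, 10 rose and 5 fell with trametinib in control cells, and in trametinib 3 were higher and 10 lower with knockout. GRIK2, a kainate receptor subunit, rose 4.31-fold (log2 2.11 ± 0.0365) and GRIA2, an AMPA receptor subunit, rose 3.28-fold (log2 1.71 ± 0.115). HOMER2, a scaffold protein, fell (log2 -0.50 ± 0.0616, adjusted p = 6.58e-10). In knockout cells in trametinib the postsynaptic scaffold SHANK3 was 4.09-fold lower (adjusted p = 1.77e-24), GRIK2 was 1.96-fold lower and GRIN3A was 1.36-fold higher (adjusted p = 0.000694).

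Of 32 genes of neurite growth and the axonal cytoskeleton, 16 rose and 11 fell with trametinib in control cells. ANK3, the ankyrin of the axon initial segment, rose 5.09-fold (log2 2.35 ± 0.0323), the guidance receptor ROBO2 rose 4.78-fold and the axonal motor KIF1A fell 4.03-fold. In trametinib 14 of the list were higher and 13 lower with knockout. MAP2, the dendritic microtubule protein, was 19.7-fold higher (adjusted p = 1.9e-29), MARCKS was 2.53-fold lower and ANK3 was 2.46-fold lower. The base of the MAP2 fold was low: control cells in trametinib were its lowest group, and its lowest library held 0.122 CPM. DCLK1 had 0 counts in all 3 control libraries in trametinib and was at least 9.24-fold higher in knockout cells against a floor of 3 counts per library.

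Among 12 other SLC6 transporters tested, 6 rose and 3 fell with trametinib in control cells, and the glycine transporter SLC6A9 fell 4.78-fold, while SLC6A15 fell 1.21-fold. SLC6A17 and SLC6A16 rose 2.43-fold and 1.93-fold. In knockout cells in trametinib SLC6A9 was 3.4-fold higher, and the taurine transporter SLC6A6 and SLC6A17 were 1.67-fold and 1.6-fold lower. Of 4 sodium-calcium exchangers, SLC24A1 and SLC8B1 rose (2.26-fold and 1.54-fold) and SLC24A3 and SLC8A1 fell (10.8-fold and 1.57-fold) with trametinib in control cells. In trametinib SLC8A1 and SLC8B1 were higher with knockout (1.68-fold and 1.32-fold) and SLC24A3 was lower (1.74-fold).

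Of 15 regulators of neuronal genes, 6 rose and 6 fell with trametinib in control cells. POU3F2, also named BRN2, fell 7.57-fold (log2 -2.92 ± 0.0718) and ELAVL2 fell 1.89-fold, while POU4F1 and NEUROG2 rose 1.52-fold and 1.43-fold. In trametinib POU4F1 and NEUROG2 were 1.39-fold and 1.35-fold lower with knockout. ELAVL2 was 1.25-fold higher (adjusted p = 0.0444). Its call did not hold in 11 alternatives, among them the replicate block (adjusted p = 0.05), limma voom (adjusted p = 0.0517), no filter on low counts (adjusted p = 0.095) and each control library left out in turn (adjusted p 0.0569 to 0.186). It was also lost without guide 1 library 1 or 3 or any 1 of the guide 2 libraries (adjusted p 0.0545 to 0.0741). Of 3 genes of the urocortin system tested, UCN rose 2.72-fold with trametinib in control cells (log2 1.44 ± 0.175, adjusted p = 4.33e-10), in the direction opposite to UCN2.

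Markers of each cell type were present in part. Of the 10 neuron markers, ELAVL4 was at 0 in 24 of 27 libraries and at most 0.0555 CPM, GRIN1 was at most 0.407 CPM, and RBFOX3 was detected in every library at 0.316 to 0.974 CPM. The others were higher, with NEFL at 77.8 to 157 CPM, DLG4 at 50.5 to 108 CPM, SYT1 at 13.7 to 31.3 CPM, MAP2 at 0.122 to 32.1 CPM, SYP at 2.53 to 8.68 CPM, SNAP25 at 0.209 to 4.59 CPM and SYN1 at 1.17 to 4.35 CPM. The neuron list was thus neither absent nor complete. Of the neuroendocrine markers, CHGA and INSM1 were at most 0.102 and 0.0717 CPM, while VGF reached 297, PCSK1 165, CHGB 22.1 and SCG2 18.2 CPM. Of the melanocyte markers, SOX10 was at 267 to 1120 CPM, MITF at 52.1 to 152 CPM, S100B at 17.3 to 98.8 CPM and DCT at 0.128 to 1060 CPM. The pigment genes PMEL, MLANA, TYRP1 and TYR were at most 2.34, 2.08, 2.27 and 0.281 CPM. In bulk RNA, fewer cells of a type and less RNA per cell cannot be told apart.

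The summed level of other lists moved with the groups. The melanocyte list of 8 genes was at 1000 to 1080 CPM in control cells in DMSO and 2240 to 2370 CPM in trametinib, and at 746 to 767 CPM with guide 1 and 458 to 472 CPM with guide 2 in trametinib. The list of 7 Schwann cell and glia genes, among them ERBB3 and NGFR, was at 1010 to 1050 CPM and 2480 to 2520 CPM in the same control groups, and at 1070 to 1080 CPM and 554 to 569 CPM with the guides in trametinib. The neuron list of 10 genes was at 149 to 160 CPM in control cells in DMSO and 206 to 259 CPM in the other 8 groups. The neuroendocrine list of 8 genes, led by PCSK1 and VGF, was at 325 to 354 CPM and 38.6 to 40.3 CPM in control cells in DMSO and trametinib, and at 143 to 151 CPM with guide 1 and 141 to 146 CPM with guide 2 in trametinib. Fibroblast genes were at 59 to 64.3 CPM in control cells in trametinib, 105 to 110 CPM with guide 1 and 135 to 141 CPM with guide 2. Of these genes COL1A2 was at most 0.273 CPM, while LUM was at 6.21 to 45.9 CPM and PDGFRB at 19 to 60.6 CPM. The leukocyte marker CD3E was at most 0.0889 CPM, while LYZ was at 4.55 to 35.8 CPM. The keratinocyte marker KRT1 was at 0 in all 27 libraries, while KRT10 was at 37.4 to 55.1 CPM and KRT14 at 3.32 to 15 CPM. The share of counts from mitochondrial genes also differed between the groups. It was 1.62% ± 0.0532 (SD, n = 3) in control cells in DMSO, 2.2% ± 0.171 in trametinib and 2.27% ± 0.0661 in vemurafenib. It was 2.54% ± 0.205, 3.34% ± 0.198 and 3.5% ± 0.0964 with guide 1, and 2.6% ± 0.088, 3.48% ± 0.161 and 3.37% ± 0.22 with guide 2, in the same order. The part of these lists and of the mitochondrial share in the results above was not tested.

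Most of the 10 genes are long. Their median span was 265 kb against 32 kb for 15826 tested protein-coding genes, and 6 of the 10 spanned more than 100 kb, against 20.2% of the protein-coding genes. The longest were NAV3 at 888 kb on chromosome 12 (77324641 to 78213008, hg38, GENCODE) and NAV2 at 771 kb on chromosome 11 (19350724 to 20121598), and the shortest were UCN2 at 2.05 kb on chromosome 3 (48561727 to 48563773) and SLC6A12 at 24.5 kb on chromosome 12 (190077 to 214570), both under that median of all genes. GRIN2A spans 429 kb on chromosome 16 (9753404 to 10182754) and PCSK2 258 kb on chromosome 20 (17226107 to 17484578).

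Neighbouring genes moved with the listed ones in some cases and against them in others. SLC6A13, a GABA transporter gene 6051 bases from SLC6A12 on the same strand, rose with trametinib in control cells (log2 6.00 ± 0.553, adjusted p = 1.29e-13), and was higher with knockout in DMSO (log2 3.40 ± 0.656) and lower with knockout in trametinib (log2 -1.80 ± 0.273, adjusted p = 1.71e-07), at a mean of 0.345 CPM. SLC6A12 itself was higher with knockout in trametinib, unlike SLC6A13. LSAMP, a neuronal adhesion gene 80873 bases from GAP43 on the opposite strand, rose 3.19 ± 0.0385 on the log2 scale with trametinib in control cells and was lower with knockout in trametinib (log2 -1.36 ± 0.0283, adjusted p = 3.59e-38). COL7A1, 300 bases from UCN2, rose with trametinib in control cells (log2 1.46 ± 0.0654), unlike UCN2, and was lower with knockout in trametinib (log2 -0.50 ± 0.0522, adjusted p = 3.42e-11). IQGAP2, 49310 bases from SV2C, fell with trametinib in control cells (log2 -0.82 ± 0.0899) and was higher with knockout in trametinib (log2 1.47 ± 0.0781, adjusted p = 9.02e-22), the reverse of SV2C. With knockout in DMSO IQGAP2 was lower (log2 -0.91 ± 0.0769), as was SV2C. ACER2, 55432 bases from SLC24A2, was also higher with knockout in trametinib (log2 1.74 ± 0.105, adjusted p = 1.26e-19).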

How the data were processed

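The authors deposited 1 table of raw whole-number read counts per gene for 27 libraries, per the file's values. Per the labels, RNA was polyA selected and made into libraries with a stranded kit, and per the submitters' processing notes bcl2fastq, HISAT2, HTSeq and the hg38 build were used. No source used here gives their versions, the annotation release or the strand setting of the counting. All 58721 row identifiers matched GENCODE 29.

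Genes were filtered with filterByExpr and fitted as 9 group means in R 4.3.3 with edgeR 4.0.16 (TMM, quasi-likelihood test, 18 residual degrees of freedom). P-values were adjusted by Benjamini and Hochberg over 25199 genes, and a gene was called at an adjusted p under 0.05. CPM values were computed here from the deposited counts with TMM-scaled library sizes, and a knockout effect is the mean of both guides against control. In a simulation of guide 2 against guide 1 in trametinib, over 23960 genes, 79% of 100 genes changed 1.5-fold and 88% of 100 changed 2-fold were recovered. Replicates of a group differed by more than sampling noise (chi-square per degree of freedom 3.05 to 13.2).

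The genes and lists were chosen with earlier results of these data known. Named were all 10 genes, TADA2B, up to 2 called genes per direction, list and comparison with the largest log2 change at a mean of at least 1 CPM, the nearest protein-coding neighbours and, for likeness, the genes with the highest r over log2 CPM (prior count 2). Neighbours described at length were picked after their values were seen. Alternatives were DESeq2 1.42.0, its size factors, limma 3.58.1 voom, other filters, a replicate block, only the groups compared and each library left out. Some genes of these lists are not reported here.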

Additional observations from a re-analysis of the deposited data

Results flagged for a closer look

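Among the 10 genes, the guides differed in the size of a drug response in 3 tested cases. NAV2 responded less with guide 2 than with guide 1, by -1.28 on the log2 scale with trametinib and -1.42 with vemurafenib, and UCN2 was lowered further with guide 2 in trametinib, by -0.77. Of all genes tested, 8.02% were called for trametinib and 4.05% for vemurafenib. These shares are not an independent reference for genes chosen on the same libraries.

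In the related lists, the trametinib response of knockout cells differed from that of control cells for the genes named by the same rule (edgeR interaction test, adjusted p under 0.05, mean of both guides). For granule genes the log2 differences were 1.28 for VGF, 1.00 for PCSK1, -3.16 for SCG5 and -0.86 for PCSK6. For vesicle genes they were 2.55 for SYTL5, 1.66 for SYT7, -1.81 for RIMS2 and -1.55 for SYN1. For glutamate receptor genes and scaffolds they were 1.00 for HOMER2, -0.82 for DLG3 and -0.81 for GRIA2. For neurite genes they were 1.09 for DPYSL5, 0.62 for DPYSL2, -1.19 for ROBO2 and -0.91 for MAP1B. For SLC6 transporters they were 1.34 for SLC6A9, 0.12 for SLC6A8, -1.57 for SLC6A17 and -0.60 for SLC6A6. For exchangers they were 0.94 for SLC8A1, -0.56 for SLC24A3 and -0.25 for SLC8B1. For regulators they were 1.76 for POU3F2, 1.32 for RCOR2, -0.71 for POU4F1 and -0.63 for CREM. These comparisons share the control and knockout libraries in DMSO.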

How the results depend on the processing

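No value of the 10 genes changed sign while called, and none of the 79 values of named related genes did, under the alternatives run. Of 70 values of the 10 genes in tested comparisons, 7 lost their call in at least 1 alternative and 4 gained one, as given with each comparison. The number of the 10 genes whose trametinib response differed between the guides was 4, in place of 2, with no filter on low counts, with at least 1 CPM in 3 libraries and with only the groups compared. Leaving out 1 library gave 2 to 5 for trametinib (5 without guide 1 library 3 in DMSO) and 1 to 2 for vemurafenib (2 without the same library). The trametinib count was 3 without guide 1 library 1 or 2 in trametinib and by the DESeq2 Wald test. The other counts called ran from 4 to 5, 6 to 9 and 8 to 10 between the guides in DMSO, trametinib and vemurafenib, and 8 to 8 and 8 to 9 between the drugs in control and knockout cells. In the main fit the shares of all genes called were 11.9%, 19.7% and 16% between the guides and 16.3% and 19.1% between the drugs. For the guides' responses to trametinib and vemurafenib they were 8.02% and 4.05%. Shares under the alternatives are not given here. With Spearman's rho 4 of the 30 most similar genes were shared, and 30 of 30 with a prior count of 0.5. No shared effect of the replicate number was seen: the correlation of same-numbered deviations was -0.0531 to 0.0545. Of 27 libraries, 10 correlated best with their own number. These values cannot tell whether same-numbered libraries were prepared together. With the replicate block the counts of the 10 genes called were 5, 9 and 10 between the guides, 8 and 9 between the drugs, and 2 and 1 for the guides' responses, and ELAVL2 lost its call (log2 0.33). The SLC6A8 difference, at 0.12, lost its call without control library 2 in trametinib (0.09). Depth limits the values of PCSK2, GRIN2A and SLC6A12 without drug, of SV2C in knockout cells without drug and of SLC24A2 with trametinib. Without control library 3 in DMSO the trametinib value was 8.56 for GRIN2A and 5.85 for SLC6A12. DESeq2's size factors moved the median of all genes by at most 0.0208.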
